A study of Mus musculus with 12 samples.

Results

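10 genes of collagen fibrils and their processing were followed in the mouse yolk sac. They are the fibril-forming chains Col1a1, Col1a2, Col3a1, Col5a1 and Col5a2, the microfibril chains Col6a1 and Col6a2, and Plod2, Pcolce and Lox, which modify, trim or cross-link collagen. The genes were chosen by name with earlier results of these arrays known, among them higher Col1a1 and Col3a1 in the mutant than in the wild type at E8.5, so values of that comparison are given as a description without a test. All 10 had a probe on the array, 17 of the 41174 distinct probes, among 19694 genes that could be named. Each probe is reported singly.

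RNA of whole yolk sacs was measured on 12 Agilent arrays with 3 biological replicates in each of 4 groups. The groups were wild-type yolk sacs at embryonic day 8.5 (E8.5), mutant yolk sacs at E8.5, wild-type yolk sacs at E9.5 and mutant yolk sacs at E9.5, all on a CD1 background. Mutants were homozygous for the V1068G allele of Arid1a, which encodes BAF250a, a subunit of a SWI/SNF chromatin remodelling complex. The labels name no Cre or other driver that would restrict the allele to a cell type, and they do not say whether 1 or several yolk sacs made a sample. Yolk sac RNA carried the dye Cy5, and on every array a common reference RNA of whole wild-type neonatal mice, of mixed 129Sv and C57BL/6 background, carried Cy3. A value is the log2 ratio of Cy5 over Cy3 for 1 probe on 1 array. A ratio below 0 means less Cy5 than Cy3 signal after normalization, relative to the middle of the array. The dyes were not swapped, so a dye effect in the sign cannot be told apart from a level lower than in the neonate. The skin and skeleton of the neonate are rich in collagen. Because probes differ in response, the ratio of one probe is never set against that of another.

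Collagen chains fold into helical trimers in the endoplasmic reticulum, where hydroxylases such as PLOD2 modify lysines. The secreted procollagen is trimmed by proteinases, which PCPE-1, the product of Pcolce, assists, and lysyl oxidase then cross-links the fibril. In the yolk sac such fibrils lie between the endoderm layer and the mesoderm-derived layer of mesothelium, blood vessels and mesenchyme.

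Of the 17 member probes, 15 from all 10 genes passed the filter, which kept probes whose Cy5 signal was well above background on every array of 1 or more of the groups. The counts below rest on the 10 probes of 9 genes that were well above background on all 12 arrays, a restriction made after the values were seen. The other 5 probes passed through the E9.5 arrays while some or all E8.5 arrays lay at background, so a stage difference was partly built into their passing. The only Lox probe is among them. No member probe was saturated. Probe A_52_P8643 of Col3a1 was well above background on 0 of 12 arrays in either channel, and A_52_P362757 of Col6a2 on 1 of 12 arrays in Cy5. Neither was tested.

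Across the series, 46.7% to 50.1% of probes were well above background in Cy5 on an array, and over 20065 tested probes the SE of a group difference had a median of 0.0668 log2 units. Marker lists checked the tissue. All 12 of 12 visceral endoderm markers and all 16 of 16 markers of extraembryonic mesoderm and mesenchyme were measured. The mean log2 ratio of the endoderm list was 1.30 to 1.53 at E8.5 and 1.78 to 2.00 at E9.5, and that of the mesenchyme list lay between -1.09 and -0.78 on all arrays. 3 arrays stood apart in trophoblast and placenta markers (9 of 18 measured): replicate 3 of the mutant at E8.5 and of both genotypes at E9.5 had list means of 2.66 to 2.77, against 1.33 to 1.75 on the other 9 arrays. Replicate 2 of the wild type at E8.5 stood apart in embryonic heart markers (12 of 13 measured), with a list mean of -2.29 against -3.12 to -2.84 elsewhere. The same array also stood apart in 2 further embryo lists. Its neural list (4 of 12 measured) was at -1.84 against -2.49 to -2.36, and its somite, limb and allantois list (3 of 12 measured) at -0.68 against -1.54 to -1.32. Decidual markers (6 of 14 measured, averaged over the 5 with a value on every array) ranged from -1.40 to -0.84. The 12 arrays were scanned in 3 scans of 4, each with 1 array of every group, and each group always had the same array position, so that a position effect cannot be told apart from a group effect.

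**Figure D1:**
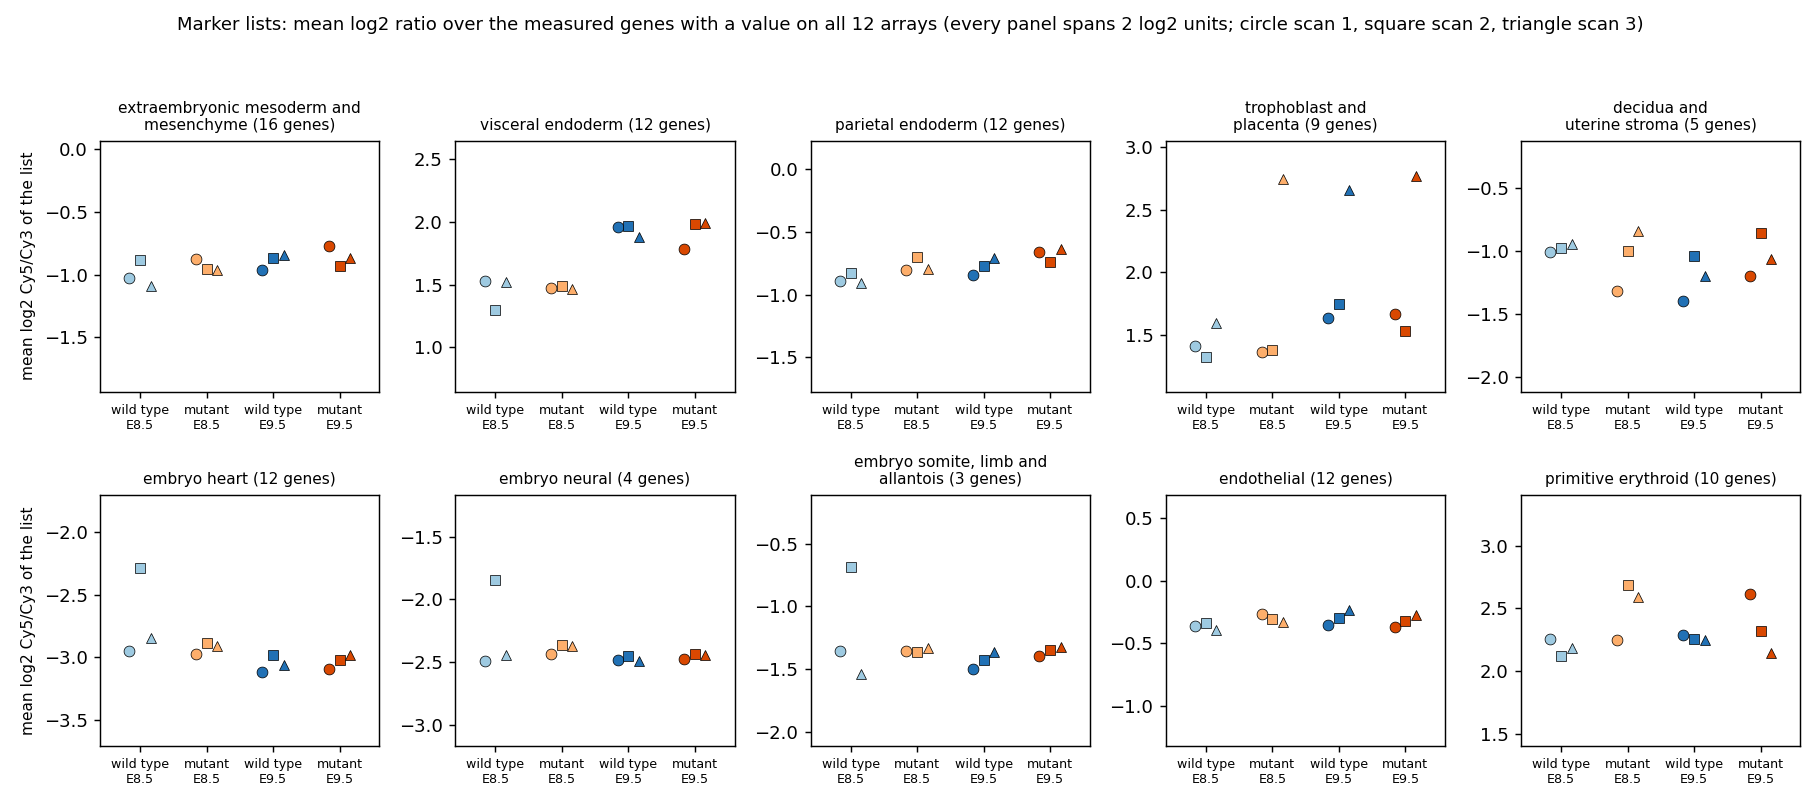
Mean log2 Cy5/Cy3 of 10 marker lists on each of the 12 arrays, by group, with 1 symbol for each scan. The trophoblast list is high on 3 arrays of scan 3 (2.66 to 2.77). The heart, neural and somite lists are high on 1 wild-type array at E8.5 (-2.29, -1.84 and -0.68). The mesenchyme list stays between -1.09 and -0.78.

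Upstream sequence is shown for Col1a2 and Col3a1, which were higher at E9.5 than at E8.5, and for Col6a1, which gave no call in either genotype. Each run is the 250 bases before the start of the gene in RefSeq on GRCm38.p6, 5′ to 3′ on the gene's own strand: chr6:4505368-4505617 (plus strand) for Col1a2, chr1:45311288-45311537 (plus) for Col3a1 and chr10:76726045-76726294 (minus) for Col6a1. Capitals mark the letters of a CCAAT box (CCAAT) or a TATA box (TATAAA). They were searched on both strands and at any position, so a match does not show a working box.
Col1a2: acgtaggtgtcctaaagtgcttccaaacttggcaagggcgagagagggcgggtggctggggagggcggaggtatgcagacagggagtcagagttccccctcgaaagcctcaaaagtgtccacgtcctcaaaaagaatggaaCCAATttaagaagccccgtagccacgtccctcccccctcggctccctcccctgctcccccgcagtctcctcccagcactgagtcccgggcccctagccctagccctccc
Col3a1: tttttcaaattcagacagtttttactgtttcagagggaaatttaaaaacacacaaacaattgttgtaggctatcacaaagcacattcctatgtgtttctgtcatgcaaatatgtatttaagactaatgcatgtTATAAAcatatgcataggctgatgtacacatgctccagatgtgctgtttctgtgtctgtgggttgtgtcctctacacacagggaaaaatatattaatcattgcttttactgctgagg
Col6a1: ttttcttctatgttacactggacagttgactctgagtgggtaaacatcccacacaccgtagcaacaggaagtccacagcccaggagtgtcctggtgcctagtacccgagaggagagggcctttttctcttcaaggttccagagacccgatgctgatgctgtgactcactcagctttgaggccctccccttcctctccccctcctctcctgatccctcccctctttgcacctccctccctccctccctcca
Col1a2 held a CCAAT 109 bases before its start, a run found in 33.8% of 32851 mouse windows of this length. Col3a1 held a TATAAA 117 bases before its start, a run found in 12.4% of windows. In Col6a1 neither run of letters occurred. The windows differed in base composition, with 62.0% G and C in Col1a2, 56.0% in Col6a1 and 35.2% in Col3a1, against a median of 52.4%, and only 5.0% of windows had less G and C than that of Col3a1. Col3a1 and Col5a2 are neighbouring genes on chromosome 1, and Col6a1 and Col6a2 on chromosome 10.

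The chains of type I collagen, the main fibril-former of skin, bone and tendon, were lowest in the wild type at E8.5. Probe A_52_P525107 of Col1a1, spotted 10 times on each array, read -4.37, -4.41 and -4.53 in the wild type at E8.5 and -3.68, -3.42 and -3.89 in the mutant. At E9.5 it read -2.54, -2.39 and -2.76 in the wild type and -2.46, -2.68 and -2.49 in the mutant. The groups thus formed 3 levels without overlap, with the wild type at E8.5 lowest, the mutant at E8.5 next and both genotypes at E9.5 together on top. The SD among the 3 arrays of a group was 0.08 to 0.24. The SD among the 10 spots on 1 array, taken on background-subtracted ratios before normalization, was 0.02 to 0.07. It holds the error between spots alone and leaves out that of labelling, hybridization and scan. The second Col1a1 probe, A_51_P377094, read -2.56, -2.56 and -2.54 in the wild type and -2.23, -2.14 and -2.38 in the mutant at E8.5. At E9.5 it read -1.27, -1.20 and -1.64 in the wild type and -1.32, -1.43 and -1.44 in the mutant, so it formed the same 3 levels as the first probe.

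Col1a2, the partner chain of Col1a1, read -3.44, -3.38 and -3.54 in the wild type and -3.09, -2.74 and -3.16 in the mutant at E8.5. Its E9.5 values were -1.77, -1.69 and -2.12 in the wild type and -1.62, -1.90 and -1.77 in the mutant. Again the E8.5 groups did not overlap and the E9.5 groups did. Col3a1, the chain of type III collagen found with type I in distensible tissues such as vessel walls, read -4.58, -4.69 and -4.74 in the wild type and -4.08, -3.91 and -4.18 in the mutant at E8.5. At E9.5 it read -3.34, -3.18 and -3.44 in the wild type and -3.26, -3.41 and -3.33 in the mutant. It formed the same 3 levels.

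The type V chains, which sit inside type I fibrils and help to start them, separated by stage and not by genotype. Col5a1 read -2.71, -2.63 and -2.91 in the wild type and -2.83, -2.70 and -2.84 in the mutant at E8.5, and -1.87, -1.73 and -1.95 against -1.58, -1.98 and -1.84 at E9.5. Col5a2 read -2.35, -2.29 and -2.22 in the wild type and -2.27, -2.37 and -2.39 in the mutant at E8.5, and -1.44, -1.41 and -1.61 against -1.47, -1.60 and -1.51 at E9.5. For both chains the genotypes overlapped at each stage while no E8.5 array reached an E9.5 array.

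The type VI chains, which form beaded microfibrils around cells and do not join banded fibrils, overlapped among all 4 groups. Col6a1 group means were -2.66 ± 0.07, -2.64 ± 0.03, -2.70 ± 0.12 and -2.68 ± 0.05 (SD, n = 3 each) in the wild type and mutant at E8.5 and the wild type and mutant at E9.5. Col6a2 group means in that order were -1.39 ± 0.14, -1.51 ± 0.09, -1.44 ± 0.11 and -1.40 ± 0.12 (SD, n = 3 each).

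Of the 10 probes well above background on all arrays, only that of the processing gene Plod2 read above 0 on all 12 arrays. There the normalized signal from yolk sac exceeded that from neonatal RNA. The dim Col5a1 probe A_52_P237371 also read above 0 on all 12 arrays, at 0.01 to 0.45. Plod2 read 0.49, 0.46 and 0.31 in the wild type and 0.50, 0.46 and 0.46 in the mutant at E8.5, and 0.76, 0.69 and 0.69 against 0.60, 0.64 and 0.74 at E9.5. Pcolce read -2.96, -2.81 and -3.13 in the wild type and -2.89, -3.11 and -3.10 in the mutant at E8.5, and -2.50, -2.46 and -2.34 against -2.23, -2.71 and -2.54 at E9.5. For both genes the E9.5 arrays lay above the E8.5 arrays of the same genotype with no overlap. Lox, near background, read -2.32, -2.21 and -2.19 in the wild type and -2.35, -2.18 and -2.05 in the mutant at E8.5, and -1.84, -2.11 and -2.08 against -2.08, -1.99 and -2.05 at E9.5.

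**Figure D2:**
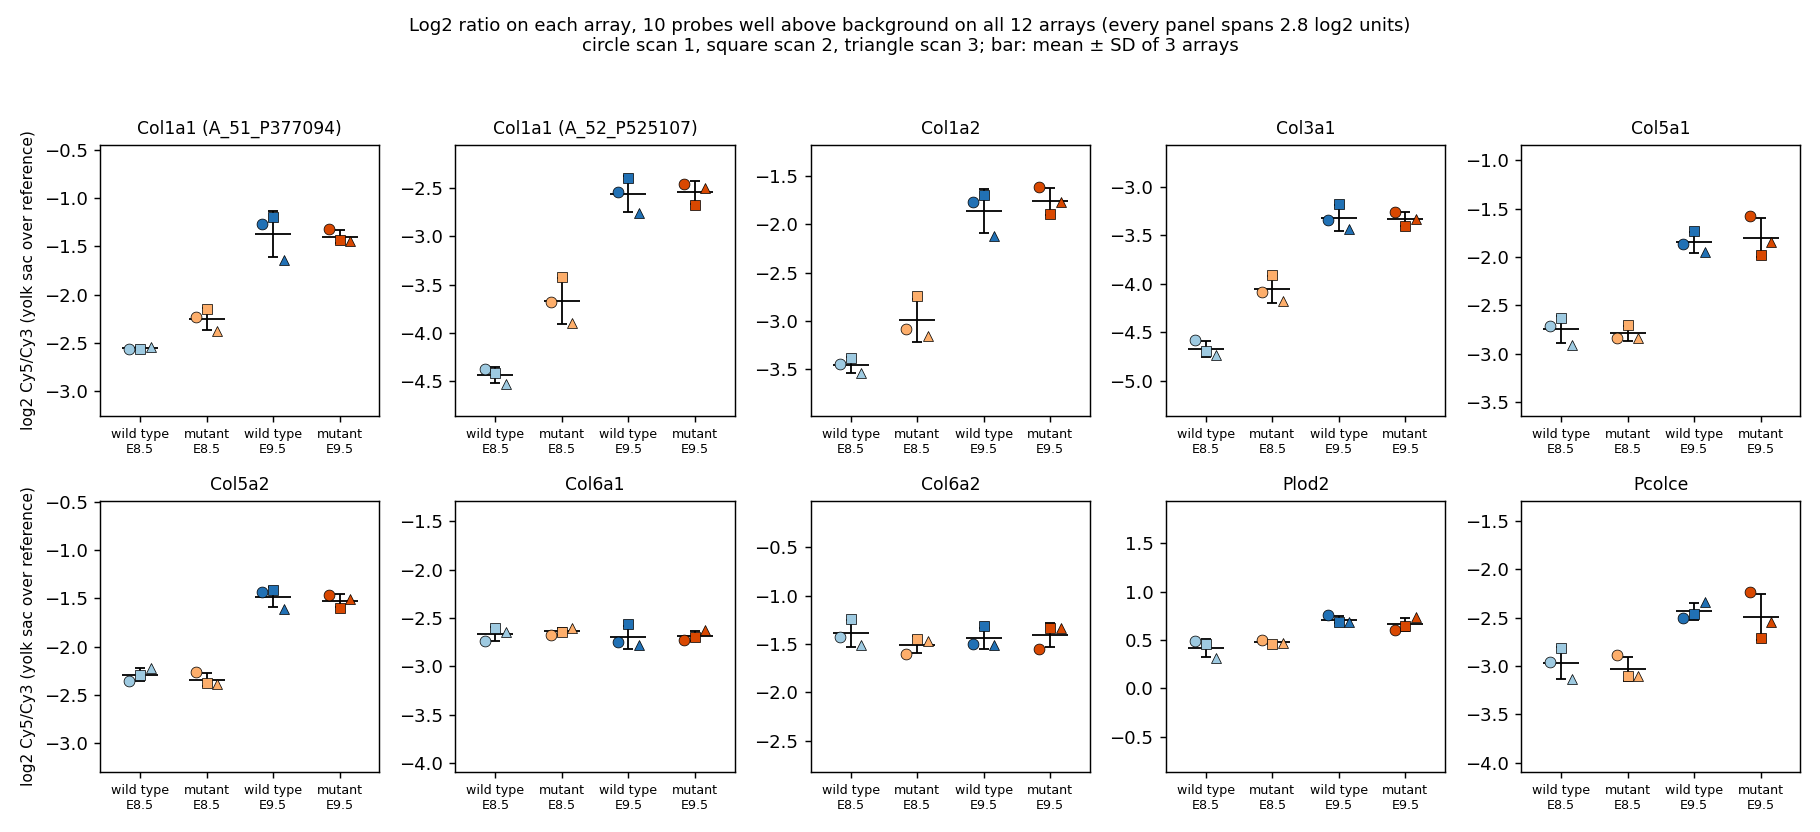
Log2 Cy5/Cy3 on each array for the 10 probes well above background on all 12 arrays, by group, with mean ± SD of 3 arrays. Col1a1, Col1a2 and Col3a1 form 3 levels, Col5a1, Col5a2, Pcolce and Plod2 separate by stage, and Col6a1 and Col6a2 overlap in all groups.

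The first comparison asked what changed over a day of development in the wild type. Col1a1, Col1a2, Col3a1, Col5a1 and Col5a2 all rose from E8.5 to E9.5, with Pcolce and Plod2, and Col6a1 and Col6a2 gave no call. Of the 10 member probes, 8 from 7 genes passed an adjusted p of 0.05 and all 8 rose, against 11.7% of the probes well above background on all arrays that rose by this rule (11% of all tested probes). Their median difference was 0.85, against -0.01 for all such probes. The stage comparisons share the E8.5 arrays with the E8.5 genotype comparison and are therefore not separate from it.

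Col1a1 rose by 1.87 ± 0.11 (SE, limma adjusted p = 1.13e-07) on probe A_52_P525107, which is 3.66-fold, and by 1.18 ± 0.09 (limma adjusted p = 1.22e-06) on A_51_P377094. The size thus differed between probes of 1 gene, and sizes on different probes do not rank the genes. Col1a2 rose by 1.60 ± 0.12 (limma adjusted p = 5.87e-07), or 3.03-fold, and Col3a1 by 1.35 ± 0.08 (limma adjusted p = 1.13e-07), or 2.56-fold. Of the type V chains, Col5a1 rose by 0.90 ± 0.10 (limma adjusted p = 2.11e-05) and Col5a2 by 0.80 ± 0.07 (limma adjusted p = 1.53e-06). All of these rises were present within each of the 3 scans. Pcolce rose by 0.53 ± 0.11 (limma adjusted p = 0.00302) and Plod2 by 0.29 ± 0.06 (limma adjusted p = 0.00288). Col6a1 differed by -0.03, with a 95% confidence interval of -0.17 to 0.10, and Col6a2 by -0.05, with an interval of -0.23 to 0.13, so changes as large as those of the fibrillar chains lay outside these intervals. Lox was well above background in Cy5 on 0 of 3 wild-type arrays and 1 of 3 mutant arrays at E8.5 and on all 6 arrays at E9.5, so no size or test of its stage difference is given.

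In the mutant 8 of 10 member probes, from those 7 genes, rose and 0 fell, against 10% of probes well above background on all arrays that rose (9.56% of all tested). Their median was 0.77, against -0.01 for all such probes. Col1a2 rose by 1.23 ± 0.12 (limma adjusted p = 6.61e-06) and Col1a1 by 1.12 ± 0.11 (limma adjusted p = 9.21e-06) and 0.85 ± 0.09 (limma adjusted p = 2.45e-05) on its 2 probes. Col3a1 rose by 0.73 ± 0.08 (limma adjusted p = 2.50e-05), Col5a1 by 0.99 ± 0.10 (limma adjusted p = 8.53e-06) and Col5a2 by 0.82 ± 0.07 (limma adjusted p = 1.31e-06). Pcolce rose by 0.54 ± 0.11 (limma adjusted p = 0.00318). Plod2 rose by 0.19 ± 0.06 (limma adjusted p = 0.0399), a call that was lost on leaving out any 1 of 5 mutant arrays, replicates 1, 2 and 3 at E8.5 and replicates 2 and 3 at E9.5, with differences of 0.15 to 0.20. Col6a1 differed by -0.05 (95% confidence interval -0.18 to 0.09) and Col6a2 by 0.10 (-0.08 to 0.28). In whole tissue RNA, more cells of a type and more transcript per cell cannot be told apart. Of the 12 visceral endoderm markers 6 rose and 1 fell in each genotype, and of the 16 mesenchyme markers 3 rose in the wild type and 2 rose and 2 fell in the mutant. Of the 13 mesenchyme markers well above background on all arrays, 2 rose in the wild type. Of the 12 parietal endoderm markers 5 rose and 1 fell in the wild type and 3 rose and 1 fell in the mutant, and of the 9 trophoblast markers measured 3 rose in the wild type and 1 rose and 1 fell in the mutant. The part of these cell types in the collagen rise was not tested. Without the 3 arrays high in trophoblast markers, the probes of type I, III and V chains rose by 0.86 to 1.97 in the wild type and by 0.67 to 1.15 in the mutant, all still called, and Plod2 in the mutant was at 0.14 (limma adjusted p = 0.313).

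Loess normalization sets the middle of each array to 0 at every brightness. With median centring in place of loess, the median of all probes between the stages moved to a value of 0.09 (wild type) or 0.13 (mutant), and the stage differences of Col1a1 on A_52_P525107 were 2.18 and 1.46. Relative to that median the type I, III and V chains still rose. Col6a2 in the mutant was then called at 0.26 (limma adjusted p = 0.0300), beside the median of 0.13 over all probes. Under loess it was at 0.10, beside a median of -0.01. With median centring 2123 of all probes were called higher and 94 lower in this comparison. The absence of a call for Col6a2 thus holds under loess and not under median centring.

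The second comparison asked whether genotypes differed at E9.5. None of the 10 member probes passed the test, and none of all 15 that passed the filter, against 1.51% of all tested probes in either direction (302 of 20065). No member probe reached an unadjusted p of 0.05 in limma, and the lowest adjusted p was 0.735. The median over the 10 probes was 0.0014, and over all probes well above background on all arrays it was -0.00094. Col1a1 differed by 0.02 (95% confidence interval -0.22 to 0.25) on A_52_P525107 and by -0.03 (-0.23 to 0.17) on A_51_P377094. Col1a2 differed by 0.10 (-0.15 to 0.35) and Col3a1 by -0.01 (-0.18 to 0.16), and the intervals of Col5a1, Col5a2, Col6a1, Col6a2, Plod2 and Pcolce lay between -0.29 and 0.26. Within scan 2 all 10 member probes were lower in the mutant, by up to 0.29, and within scan 3 the type I and III probes were higher in the mutant, by 0.11 to 0.35. The sign of the E9.5 genotype difference thus changed between scans.

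**Figure D3:**
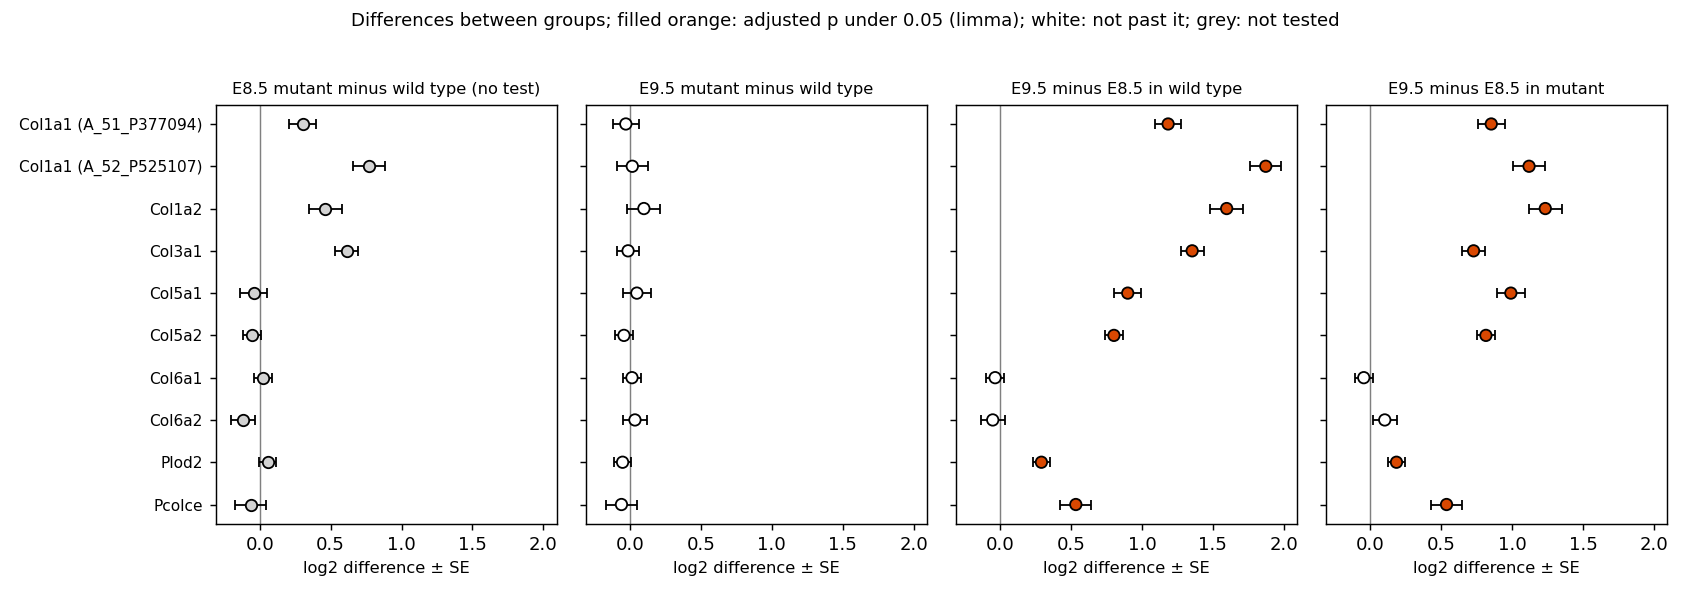
Log2 differences ± SE of the 10 member probes in 4 comparisons, with no test for E8.5. Stage differences reach 1.87 for Col1a1, Col6a1 and Col6a2 lie near 0, and all E9.5 genotype differences lie between -0.06 and 0.10.

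At E8.5, the comparison that had prompted the choice of Col1a1 and Col3a1, the mutant values of type I and III collagen lay part of the way towards the E9.5 level. The difference was 0.77 ± 0.11 (SE) for Col1a1 on A_52_P525107, a ratio of 1.71, and 0.30 ± 0.09 on A_51_P377094. It was 0.61 ± 0.08 for Col3a1, a ratio of 1.53, and 0.46 ± 0.12 for Col1a2, a ratio of 1.38. These 4 probes of 3 genes were higher in the mutant within all 3 scans and did not overlap between genotypes, beside 9.06% of probes well above background on all arrays (8.77% of all probes). The members just outside that pattern were Plod2 at 0.06, Col6a1 at 0.03, Col5a1 at -0.04, Col5a2 at -0.05, Pcolce at -0.06 and Col6a2 at -0.12, all overlapping between genotypes. The differences were widest in scan 2, where Col1a1 reached 0.99 and Col3a1 0.78, and narrower in scans 1 and 3, at 0.69 and 0.64 for Col1a1 and 0.50 and 0.56 for Col3a1. With median centring in place of loess, which put the median of all probes at -0.08, the differences of Col1a1 were 0.65 on A_52_P525107 and 0.20 on A_51_P377094, that of Col3a1 was 0.49 and that of Col1a2 0.33. Without mutant replicate 2 at E8.5 the differences were 0.65 for Col1a1 on A_52_P525107, 0.54 for Col3a1 and 0.33 for Col1a2. Without the 3 arrays high in trophoblast markers they were 0.89, 0.67 and 0.55, and without the wild-type array high in heart markers 0.78, 0.60 and 0.50. At E8.5 the parietal endoderm list stood at -0.91 to -0.82 in the wild type and -0.81 to -0.70 in the mutant, and the mesenchyme list at -1.09 to -0.89 and -0.96 to -0.87. The endothelial list stood at -0.40 to -0.34 in the wild type and -0.33 to -0.26 in the mutant. The primitive erythroid list overlapped, at 2.12 to 2.26 in the wild type and 2.25 to 2.69 in the mutant. Its 10 of 10 markers were higher in the mutant, with a median difference of 0.28, beside 0.0008 over all tested probes. The trophoblast list stood at 1.33 to 1.59 and 1.37 to 2.74. Of its 9 measured markers 8 were higher in the mutant, with a median difference of 0.45. The part of these cell types in the collagen difference was not tested.

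**Figure D4:**
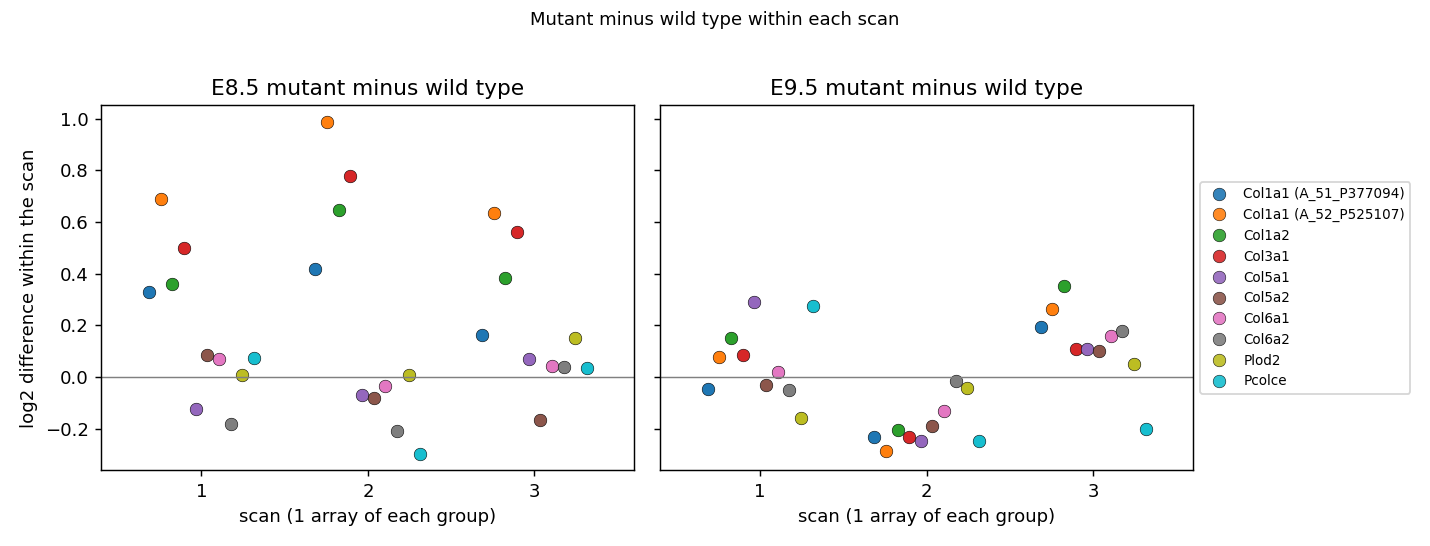
Mutant minus wild type within each of 3 scans, 1 array of each genotype per scan, for the 10 member probes at E8.5 (left) and E9.5 (right). At E8.5 the Col1a1, Col1a2 and Col3a1 probes are above 0 in every scan, at E9.5 all 10 probes are below 0 in scan 2.

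The genotype difference at E9.5 minus that at E8.5 was -0.75 ± 0.16 (SE) for Col1a1 on A_52_P525107 and -0.33 ± 0.13 on A_51_P377094. It was -0.63 ± 0.11 for Col3a1 and -0.36 ± 0.17 for Col1a2, and between -0.11 and 0.15 for the other 6 probes. It holds the E8.5 comparison and is given without a test for the members. Across all 20065 probes limma called 0 in this contrast (0%), with 1102 at an unadjusted p under 0.05, and the alternatives called between 0 and 6.

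The 5 dimmer probes carry no stage result, since most of their E8.5 arrays lay at background. All 5 were well above background in Cy5 on all 6 arrays at E9.5. At E8.5 the number was 0 of 3 wild-type and 2 of 3 mutant arrays for A_52_P658611 of Col1a1, and 0 of 6 arrays in all for A_52_P424253 of Col1a2. It was 0 of 3 and 1 of 3 for A_52_P684242 of Col3a1 and for Lox, and 1 of 3 and 2 of 3 for A_52_P237371 of Col5a1. In each gene that has a dim and a bright probe, the dim probe lies 13798 to 48285 bases before the last probe of the gene in the array's own genome annotation, for which the sources used here name no build. The measured Lox difference between stages in the wild type was 0.23 with the offset of 50 and 1.59 with the processed signals of the scanner software, so its size depends on how signals at background are treated and cannot be read from these arrays.

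Other genes of collagen assembly were taken from 8 lists that hold 84 genes, 62 of them measured and 57 measured on a probe well above background on all arrays. Of the 57, 28 rose and 0 fell in the wild type from E8.5 to E9.5, and 33 rose and 1 fell in the mutant (with the replicate number as a block, over all 62, 32 rose and 2 fell in the wild type and 35 rose and 1 fell in the mutant), beside the 11.7% and 10% of probes that rose and the 10.2% and 10.1% that fell. Without the 3 arrays high in trophoblast markers, 20 of the 62 measured genes rose in the mutant in place of 34. Over all tested probes, the same omission took those that rose in the mutant from 1919 to 799. Leaving out mutant replicate 3 at E9.5 alone gave 22 of the 62. Among other fibrillar chains 2 of 5 rose in each genotype: Col11a1, the partner of type V chains in some fibrils, by 1.20 and 1.22 in the wild type and mutant, and Col2a1, the cartilage chain, by 0.81 and 0.54. Counts by list are over all 62 measured genes. Of the fibril-associated collagens with Col6a3, 5 of 8 rose in the wild type and 6 of 8 in the mutant, led by Col16a1 at 0.68 and 0.73. Of the 7 on a probe well above background on all arrays, 5 rose in each genotype. Col6a3, the third type VI chain, rose by 0.64 and 0.55 while Col6a1 and Col6a2 gave no call, and Col14a1 rose by 0.57 in both genotypes.

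The enzymes and chaperones of the endoplasmic reticulum formed the longest list, with 16 genes measured, and had the most genes called. That count does not rank the list by share, since 5 (wild type) and 6 (mutant) of only 8 fibril-associated genes rose. Of the 16, 10 rose in the wild type, and 11 rose and 1 fell in the mutant, with median differences of 0.28 and 0.26. P3h3, a collagen prolyl 3-hydroxylase family member, rose by 0.77 and 0.79, and P4ha2, a catalytic subunit of prolyl 4-hydroxylase, by 0.49 and 0.57. Fkbp10, a chaperone of procollagen, rose by 0.48 and 0.43, and P3h4 by 0.38 and 0.53. P3h2 differed by -0.12 in the wild type (limma adjusted p = 0.249) and fell by 0.27 in the mutant. Of the procollagen proteinases and their enhancers, 0 of 6 rose in the wild type and 2 of 6 in the mutant, Adamts2 by 0.30 and Bmp1, the proteinase assisted by PCPE-1, by 0.22. The Adamts2 call was lost in 10 of 24 alternatives (limma adjusted p up to 0.164) and the Bmp1 call in 14 of 24 (up to 0.213), and in the wild type the differences were 0.24 and 0.10. Of the other lysyl oxidases, Loxl1 rose by 0.38 and 0.44. Loxl2 differed by 0.17 in the wild type (limma adjusted p = 0.199) and rose by 0.27 in the mutant, a call lost in 11 of 24 alternatives (limma adjusted p up to 0.149).

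Of the fibril-binding proteoglycans and matrix proteins, 7 of 14 rose in the wild type and 8 of 14 in the mutant. Lumican (Lum), which controls fibril spacing, rose by 1.21 and 0.84, and decorin (Dcn), another such proteoglycan, by 0.97 and 0.94, with no Dcn value for mutant replicate 2 at E8.5. Periostin (Postn), which helps BMP1 to act at the matrix and also stands in the mesenchyme marker list, rose by 0.84 and 0.54. Of collagen receptors 0 of 5 rose in the wild type and 1 of 5 in the mutant, Itgb1 by 0.23 against 0.10 in the wild type, with the call lost in 5 of 24 alternatives (limma adjusted p up to 0.142). Of collagen-degrading proteases and their inhibitors 3 of 6 rose in the wild type and 2 of 6 in the mutant: Timp1 by 0.45 and 0.40, Mmp14 by 0.33 and 0.27, and Timp3 by 0.54 in the wild type against a difference of 0.15 in the mutant, with the wild-type call lost in 3 of 24 alternatives (limma adjusted p up to 0.0693). The P3h2 call was also lost in 3 of 24. None of these differences in rise between genotypes was called by limma.

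At E9.5, 1 gene of the 62 was called higher in the mutant and 0 lower, beside 0.668% of tested probes called higher. Sparc, which encodes a collagen-binding glycoprotein that chaperones procollagen and is abundant in parietal endoderm, read -2.09, -2.04 and -2.10 in the wild type and -1.70, -1.81 and -1.68 in the mutant. It was higher in the mutant by 0.34 ± 0.06 (SE, limma adjusted p = 0.00883), with no overlap. Its E8.5 values were -2.21, -2.25 and -2.36 in the wild type and -1.97, -1.85 and -2.01 in the mutant, a difference of 0.33 given without a test. Over the alternatives the E9.5 difference was 0.28 to 0.38 and the adjusted p 0.00751 to 0.941, with the call lost in 5 of 24, among them median centring (0.28, limma adjusted p = 0.941), the scanner's processed signals (0.36, limma adjusted p = 0.0947) and the fit without the 3 arrays high in trophoblast markers (0.30, limma adjusted p = 0.142). The list of 12 parietal endoderm markers, which includes Sparc, had means of -0.84 to -0.70 in the wild type and -0.73 to -0.64 in the mutant at E9.5, and its part in the Sparc difference was not tested.

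**Figure D5:**
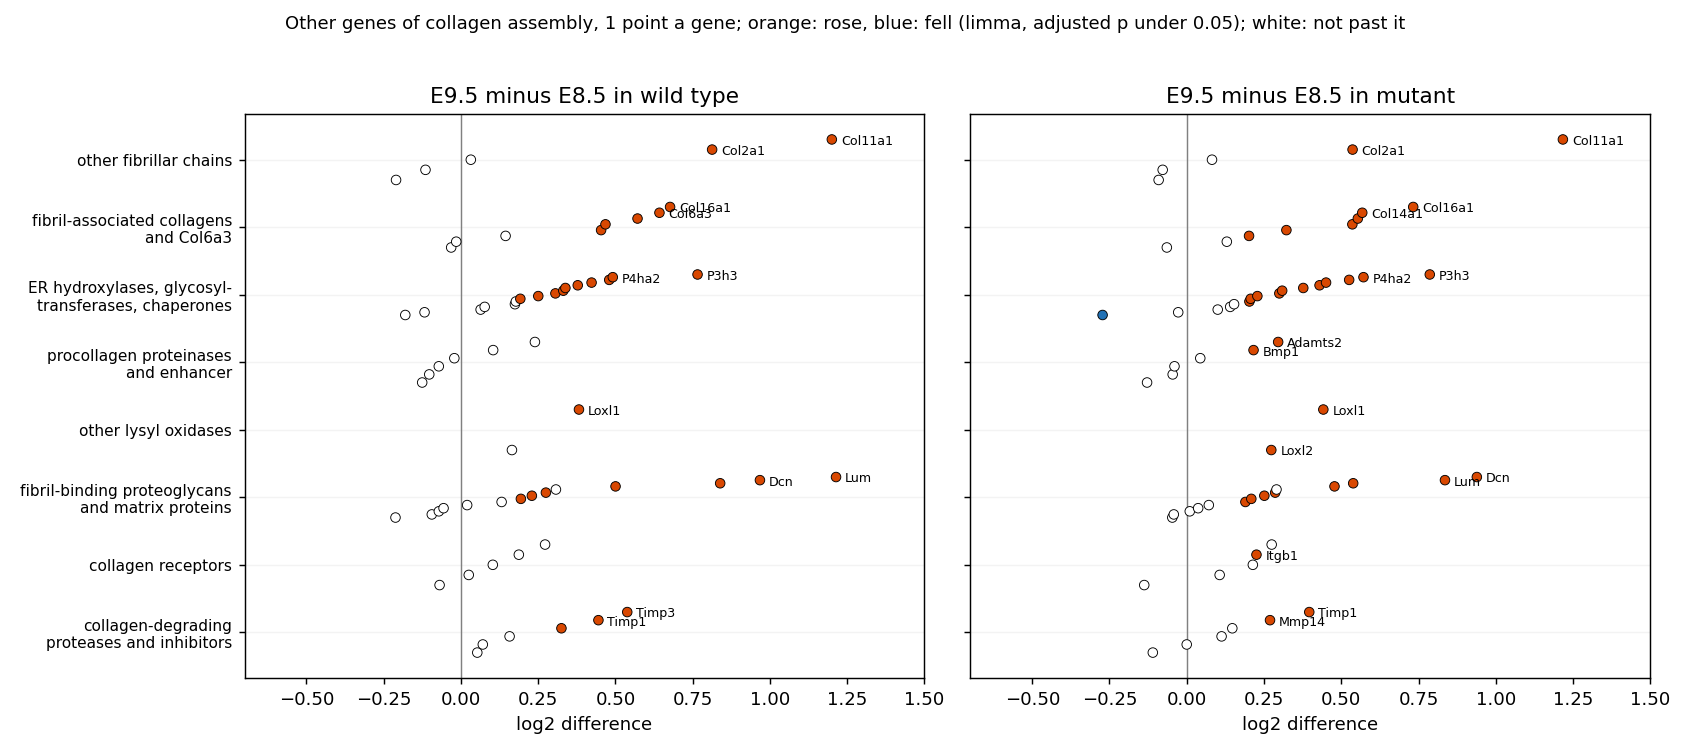
Log2 difference between E9.5 and E8.5 of 62 genes in 8 lists of collagen assembly, in the wild type (left) and the mutant (right), 1 point a gene, with genes past an adjusted p of 0.05 filled. Col11a1 (1.20 and 1.22), Lum (1.21 and 0.84) and Dcn (0.97 and 0.94) lie farthest to the right.

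The genes with profiles most like the collagens were found by the root mean square difference of log2 ratios, each probe centred on its mean over 12 arrays, among probes with an SD at least 50% of that of the collagen. Nearest to Col1a1 (probe A_52_P525107, SD 0.84, 173 candidate genes) were Pf4, a chemokine of platelets and megakaryocytes, at 0.26, Clca1 at 0.27, B2m at 0.30, Spp2 at 0.31 and Plagl1 at 0.32. Pf4, centred, read -1.47, -1.45 and -1.52 in the wild type and -0.20, -0.21 and -0.24 in the mutant at E8.5, and 0.30 to 1.10 on the E9.5 arrays. Nearest to Col3a1 (probe A_51_P515605, SD 0.60, 499 candidates) were Angptl6 at 0.14, Cfb at 0.19, Lum at 0.20, Serpinf2 at 0.21 and Fxyd2 at 0.21. These profiles share their arrays and the same stage contrast, and likeness is a description of these 12 arrays.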

How the data were processed

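RNA from 12 yolk sac samples was measured against a common reference on 2-colour Agilent arrays. The deposited per-array files hold, per the file headers, mean and background intensity of each channel, made with Feature Extraction 9.5.1.1, and the authors' processed signals (background-subtracted, spatially detrended and LOWESS-normalized) as a log10 ratio of Cy5 over Cy3. A further deposited file combines the arrays as log2 ratios centred on the median of each probe, with 15 of the 17 member probes among 19033 entries. Its columns had medians of -0.006 to 0.004 and correlated with the per-array ratios at r above 0.999, which gives its scale and direction. How its entries were chosen stays unknown.

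In R 4.3.3 with version 3.58.1 of limma and version 1.17.8 of data.table, background was corrected with normexp (offset 50) and ratios were normalized within arrays by loess with controls at weight 0. Outlier spots, and spots over 20 units below local background (6, on mutant E9.5 replicate 3), were set to missing, and repeated spots were averaged. The second of these rules was taken from earlier work on these data. Probes were tested where every array of some group had Cy5 well above background (20065 probes, 46 missing values). Probe names were matched to RefSeq by accession (23374 probes), current symbol (6733) or older symbol (2919), and 8148 kept the name in the file. All 17 member probes matched by symbol. Limma fitted 4 group means to 12 arrays (8 residual and 6.72 prior degrees of freedom), with p-values adjusted by Benjamini-Hochberg over all tested probes and a threshold of 0.05. The fit was tested on simulated data with noise drawn independently for each array, which does not cover deviations shared within a scan. The number of arrays limits the precision.

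Members and lists were chosen with earlier results of these data known. Of each list, up to 3 called genes with the largest change in each direction and tested comparison were named, each gene represented by its brightest probe on average, together with the 5 genes most like Col1a1 and Col3a1. Replicate numbers coincided with scans. Deviations of same-numbered arrays correlated at 0.13 to 0.24 for replicate 1, 0.12 to 0.40 for replicate 2 and -0.01 to 0.27 for replicate 3. Of the pairs, 6 of 6, 6 of 6 and 4 of 6 exceeded 0.1, so most same-numbered arrays deviated together. The main fit nevertheless used no block. With the replicate number as a block, limma called 404 probes between genotypes at E9.5 in place of 302. Between stages it called 4920 in place of 4066 in the wild type and 4362 in place of 3739 in the mutant. Header barcodes formed 2 groups, with scans 2 and 3 sharing one.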

Additional observations from a re-analysis of the deposited data

Results flagged for a closer look

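One member probe had genotype differences of opposite sign at the stages in every scan. Probe A_52_P424253 of Col1a2, whose Cy5 signal was well above background on 0 of 6 arrays at E8.5 and 6 of 6 at E9.5, differed between mutant and wild type by -0.05, -0.04 and -0.07 in the 3 scans at E8.5 and by 0.12, 0.07 and 0.05 at E9.5. The difference of these differences was 0.134 on the log2 scale, with an SE of 0.09, and was not tested. The E8.5 values compare background with background, so neither their sign nor the change of sign can be read as a difference in transcript. The brighter Col1a2 probe, A_51_P182303, gave -0.36 for the same quantity.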

How the results depend on the processing

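The counts of member probes called among the 10 well above background on all arrays (0 at E9.5 between genotypes, 8 between stages in the wild type, 8 in the mutant) moved little under 24 alternatives: they stayed at 0 and 8, and were 7 to 9 in the mutant. Leaving out each array in turn gave 0, 8, and 7 to 8. With the replicate number, which is also the scan, as a block the counts were 0, 8 and 8, and the block changed no call of a member probe. The median E8.5 genotype difference of the 15 member probes (0.03) was 0.366 with the processed signals of Feature Extraction or with the deposited table, 0.155 with offset 0 and -0.0412 with median centring, and 0.00268 to 0.0548 on leaving out 1 array. The median difference of the genotype differences (-0.06) was -0.280, -0.280 and -0.122 under the first 3 of these, and -0.0790 to -0.0270 on leaving out 1 array. With processed signals the E8.5 median was the value of a dim probe, A_52_P237371 of Col5a1, at -0.02 in the main fit. Other dim probes were then at 0.98 (Col1a1), 0.53 (Col3a1), 0.39 (Lox) and -0.08 (Col1a2). Of the brighter probes, Col1a1 (A_52_P525107), Col3a1 and Col1a2 were at 0.83, 0.67 and 0.51, against 0.77, 0.61 and 0.46 in the main fit. A_51_P377094 of Col1a1 was at 0.45 against 0.30, and Col6a1 at 0.16 against 0.03. The cause of these shifts was not tested.

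Over all probes, calls between genotypes at E9.5 fell from 302 to 34 with median centring, 117 with offset 0, 135 with processed signals, 148 with the deposited table and 139 without the 3 arrays high in trophoblast markers. Stage calls fell from 4066 to 1821 in the wild type and from 3739 to 2217 in the mutant with median centring, which gave 1722 higher and 99 lower in the wild type in place of 2206 and 1860, and 2123 and 94 in the mutant in place of 1919 and 1820. Without the 3 arrays, stage calls in the mutant were 1496. 5 of the 15 tested member probes were not above background on every array, and for these the signal limits what a difference can show.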
